A study of Mus musculus with 6 samples.

Results

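Interleukins are secreted signalling proteins through which leukocytes, epithelium and stroma instruct each other, and their receptors are cell-surface chains that mostly work in pairs. In GENCODE M21, 84 protein-coding mouse genes have a symbol that begins with Il and a digit, and 59 of them were among the 21718 genes of the deposited count table. The remaining 25, which include Il4, Il13, Il17a and Il22, were not analysed here. Of the 59 genes, 18 encode ligands, antagonists or a binding protein, 38 encode receptor chains and 3 carry the name only or stand outside these families. A filter on low counts kept 43 of the 59 genes and 15963 genes in all.

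RNA came from prostate tumours of castrated mice of a genetic prostate cancer model, the same in both groups. In the F10-deleted group (3 samples, numbered 1, 3 and 4) the mice carried marrow from F10fl/fl; LysM-Cre+ donors, in which the Lyz2-driven recombinase deletes coagulation factor X in myeloid cells. In the F10-intact group (3 samples, numbered likewise) the marrow came from F10fl/fl donors without the Cre. All recipients were irradiated with 900 rad and transplanted at 6 weeks of age, castrated at 8 weeks and had their tumours taken 16 weeks after castration. The epithelium, stroma and other cells outside the blood system therefore belonged to hosts in which F10 was not targeted. Whether every sample came from its own animal is not in the labels, and the p-values therefore reflect only how far these samples spread, which may be technical.

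Total counts ranged from 9237308 to 11559980 in the F10-deleted samples and from 10520465 to 11821588 in the F10-intact samples. F10 itself had 7, 4 and 9 counts in F10-deleted samples and 2, 6 and 17 counts in F10-intact samples 1, 3 and 4, too few to check the labels in whole tissue. F10-intact sample 4 stood apart from the other samples on the first principal component. The luminal epithelial markers were plentiful, with a summed level of 4758 to 5302 CPM (counts scaled by library size) in F10-deleted samples and 4761 to 6040 CPM in F10-intact samples. The prostate secretory markers summed to 216 to 482 CPM in F10-deleted samples against 1077 to 3171 CPM in F10-intact samples. Skeletal muscle markers summed to 153 to 421 CPM in F10-deleted samples against 7.15 to 32.9 CPM in F10-intact samples. In whole tissue, fewer cells of a type and less RNA per cell cannot be told apart.

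The IL-1 family, which held most of the interleukin ligand transcripts in these tumours, includes agonists (Il1a, Il1b, Il18, Il33 and the IL-36 ligand Il1f9) and natural brakes. Il1rn encodes a receptor antagonist that occupies the IL-1 receptor without signalling, and Il18bp encodes a soluble protein that traps IL-18. Il33 and Il1a are alarmins, released from damaged barrier cells, whereas pro-IL-1 beta and pro-IL-18 are cut by caspase-1 before they act.

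No interleukin gene passed the main test between the marrow groups, and the smallest p-values among them belonged to the IL-1 family genes Il1rn, Il18 and Il33. With the edgeR quasi-likelihood test and Benjamini-Hochberg adjustment over all genes, 0 of 43 interleukin genes had an adjusted p under 0.05, beside 7 of 15963 genes overall (0.0439%). At an unadjusted p under 0.05 there were 2 interleukin genes, Il1rn and Il18, or 4.65% of the 43, where 10.9% of all genes had such a p. Both were higher in F10-deleted samples, as were 6.15% of all genes at that p, while 4.74% of all genes and 0 interleukin genes were lower. DESeq2 called 1 of the 43, Il1rn, as higher, beside 3.05% of all genes (2.22% higher and 0.827% lower), and limma-voom called 0. With the replicate number as a block, edgeR called 2 genes overall (0.0125%, with 0.00626% in each direction), of which 0 were among the 7 called without it, and 0 interleukin genes. The median log2 fold change (F10-deleted over F10-intact) was -0.04 over the 43 genes and -0.02 over all genes tested. It was within 0.25 of 0, on the log2 scale, for 27 of the 43 genes and within 0.5 for 36.

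Il1rn, Il18 and Il33 were the 3 tested members whose groups did not overlap, all with the F10-deleted samples above the F10-intact ones. That is 6.98% of the 43, where 16.7% of all genes tested did not overlap (8.99% higher and 7.67% lower in the F10-deleted group). The DNA before their furthest upstream RefSeq start sites is shown because these are the members that separated the groups. Each sequence is the 250 bases upstream of the start on the plus strand of GRCm38.p6. Capitals mark matches to 4 motifs of inflammatory transcription factors searched on both strands.

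Il1rn, chr2:24336610-24336859: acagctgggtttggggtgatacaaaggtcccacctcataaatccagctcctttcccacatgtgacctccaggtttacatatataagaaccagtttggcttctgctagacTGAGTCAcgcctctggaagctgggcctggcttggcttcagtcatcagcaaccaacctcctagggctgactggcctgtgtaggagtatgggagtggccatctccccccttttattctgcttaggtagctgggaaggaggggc
Il18, chr9:50554450-50554699: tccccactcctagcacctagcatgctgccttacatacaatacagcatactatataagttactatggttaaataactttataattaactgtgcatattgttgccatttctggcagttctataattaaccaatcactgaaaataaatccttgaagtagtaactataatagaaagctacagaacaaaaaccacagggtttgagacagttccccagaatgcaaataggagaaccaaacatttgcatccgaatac
Il33, chr19:29924863-29925112: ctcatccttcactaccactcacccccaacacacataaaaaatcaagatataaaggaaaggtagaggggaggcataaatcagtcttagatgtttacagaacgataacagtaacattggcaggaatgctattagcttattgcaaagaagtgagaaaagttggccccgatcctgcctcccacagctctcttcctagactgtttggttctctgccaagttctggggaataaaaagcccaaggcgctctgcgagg

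The Il1rn window held a single match, the bases TGAGTCA from -141 to -135 before the start, which fits the AP-1 motif TGANTCA. The Il18 window and this Il33 window held no match to AP-1, to the STAT motif TTCNNNGAA, to the C/EBP motif TTGCNNAA or to NF-kB. The 2 other Il1rn windows in RefSeq, chr2:24345041-24345290 and chr2:24345121-24345370, held no match either. A second Il33 start, at the window chr19:29945540-29945789, had a C/EBP match at -85 to -78. Among all 32851 RefSeq windows, 6.75% held the AP-1 motif, 7.02% the STAT motif, 9.56% the C/EBP motif and 7.25% the NF-kB motif. RefSeq had 59 windows for 47 of the interleukin genes, some of them overlapping. In these, the AP-1 motif occurred in 18.6%, the C/EBP motif in 20.3%, the STAT motif in 10.2% and the NF-kB motif in 8.47%. These shares describe letters in short windows, and no binding was measured.

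Il1rn (ENSMUSG00000026981, chromosome 2, 24336853 to 24351494, plus strand, GRCm38) stood at 73.4, 86.4 and 106 CPM in F10-deleted samples and 37.6, 50.3 and 48.8 CPM in F10-intact samples 1, 3 and 4. Every F10-deleted sample was well above the highest F10-intact sample. The means were 88.5 ± 16.2 CPM in the F10-deleted group and 45.6 ± 6.98 CPM in the F10-intact group (SD, n = 3 each), a 1.94-fold difference. Its log2 fold change was 0.96 ± 0.18 (SE, 95% interval 0.53 to 1.39), with an edgeR adjusted p of 0.11. DESeq2 gave 0.97 with an adjusted p of 0.000755, so the call depends on the test.

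Il33 (ENSMUSG00000024810, chromosome 19, 29925114 to 29960718, plus strand) was the most abundant interleukin transcript per exon length. It had 214, 255 and 218 CPM in F10-deleted samples against 136, 197 and 70.0 CPM in F10-intact samples. The F10-deleted samples were close together, while the F10-intact samples were widely spread, with sample 4 the lowest. The log2 fold change was 0.77 ± 0.34 (SE, 95% interval -0.02 to 1.55), with an edgeR adjusted p of 0.467. Leaving out F10-intact sample 4 gave 0.45, and leaving out sample 3 of that group gave 1.15.

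Il18 (ENSMUSG00000039217, chromosome 9, 50554827 to 50581840, plus strand) had 10.9, 16.0 and 11.8 CPM in F10-deleted samples against 7.11, 9.51 and 6.53 CPM in F10-intact samples. The gap between the groups was narrow, from 9.51 CPM in an F10-intact sample to 10.9 CPM in an F10-deleted one. Its log2 fold change was 0.74 ± 0.26 (SE, adjusted p with edgeR = 0.346). Its trap, Il18bp, showed no such pattern, with 34.5, 20.05 and 33.0 CPM in F10-deleted samples and 32.4, 27.7 and 32.1 CPM in F10-intact samples. The log2 fold change of Il18bp was -0.07 ± 0.22 (SE, adjusted p with edgeR = 0.94).

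Il1b, the main secreted agonist of the IL-1 receptor, had 13.5, 22.5 and 25.2 CPM in F10-deleted samples and 19.2, 28.0 and 40.9 CPM in F10-intact samples. The groups overlapped, although the highest sample was F10-intact and the lowest F10-deleted. The log2 fold change was -0.52 ± 0.33 (SE, adjusted p with edgeR = 0.625), and -0.21 without F10-intact sample 4 or -0.26 without F10-deleted sample 1. Il1a was scarce, at 2.31, 2.11 and 4.01 CPM in F10-deleted samples and 2.86, 3.51 and 2.18 CPM in F10-intact samples. The IL-36 gamma ligand Il1f9 was rarer still, at 1.43 ± 0.305 CPM in the F10-deleted group and 2.17 ± 0.923 CPM in the F10-intact group (SD, n = 3 each), with overlap.

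**Figure D1:**
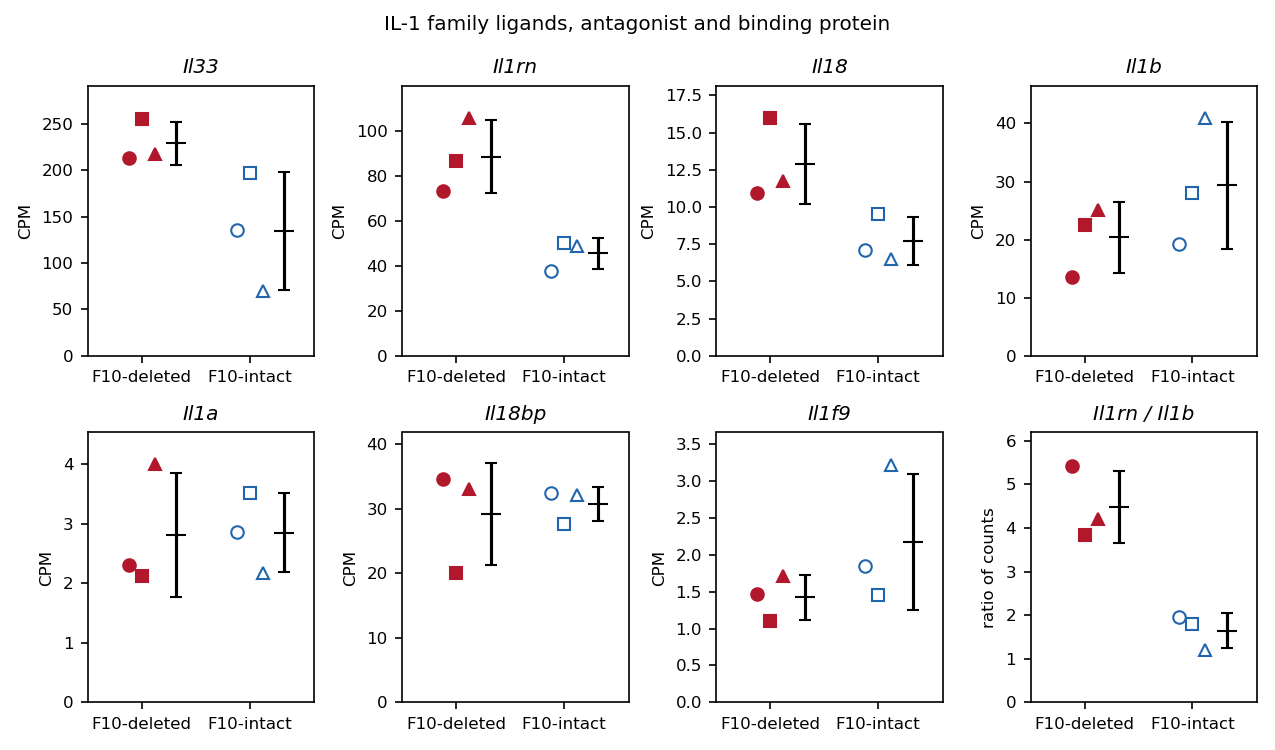
Levels of the 7 measured IL-1 family ligands, antagonist and binding protein in CPM, and the ratio of Il1rn counts to Il1b counts, in each sample (circle, sample 1; square, sample 3; triangle, sample 4). Black marks give the mean and SD of 3 samples per group. Il33, Il1rn, Il18 and the ratio, which contains Il1rn, do not overlap between groups, while the other 4 panels do.

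The balance of antagonist to agonist, examined after these values were seen and so given without a test, separated the groups. Its numerator Il1rn already did so alone, while Il1b overlapped, so the balance partly repeats the Il1rn difference. Il1rn counts were 5.42, 3.84 and 4.20 times the Il1b counts in F10-deleted samples and 1.96, 1.80 and 1.20 times in F10-intact samples. A ratio of counts within a sample is free of the scaling between samples. Per exon length the ratios were 1.87, 1.32 and 1.45 in F10-deleted samples and 0.674, 0.618 and 0.412 in F10-intact samples. By counts Il1rn exceeded Il1b in every sample, and per kilobase in the F10-deleted samples alone. Merged exon length is not transcript length, so which transcript was the more numerous is not established. The ratio of Il1rn to Il1a counts was 31.8, 40.9 and 26.4 in F10-deleted samples against 13.1, 14.3 and 22.4 in F10-intact samples, without overlap. Il1a itself had a log2 fold change of -0.02, so this ratio largely repeats the Il1rn difference.

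The groups overlapped for the other ratios of brake or receptor to agonist. Il18bp counts were 3.16, 1.25 and 2.80 times the Il18 counts in F10-deleted samples and 4.56, 2.91 and 4.92 times in F10-intact samples, lower in the F10-deleted sample of all 3 same-numbered pairs. The ratio of the decoy receptor Il1r2 to the signalling receptor Il1r1 was 0.114, 0.0884 and 0.163 in F10-deleted samples and 0.145, 0.127 and 0.152 in F10-intact samples. The IL-33 receptor Il1rl1 also exists as a soluble decoy. Its counts were 0.00983, 0.00597 and 0.0106 times the Il33 counts in F10-deleted samples and 0.0163, 0.00826 and 0.0148 times in F10-intact samples. This ratio too was lower in the F10-deleted sample of all 3 same-numbered pairs. The denominators Il18 and Il33 were themselves higher in every F10-deleted sample, so the lower ratios partly repeat that difference.

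Marker genes of several cell types moved beside these ligands. The 4 basal epithelial markers (Krt5, Krt14, Trp63 and Krt15) all had log2 fold changes above 0 and summed to 2666, 3548 and 2108 CPM in F10-deleted samples against 1882, 1240 and 758 CPM in F10-intact samples. The 4 endothelial markers, all above 0, summed to 44.6, 46.0 and 35.5 CPM in F10-deleted samples against 31.4, 26.7 and 19.4 CPM in F10-intact samples. Neither the basal nor the endothelial sums overlapped between the groups, and F10-intact sample 4, the lowest for Il33, was also the lowest for both. The 4 natural killer and cytotoxic markers, of which 2 (Gzma and Gzmb) were above 0, summed to 20.1, 10.3 and 17.2 CPM in F10-deleted samples against 7.57, 7.46 and 6.12 CPM in F10-intact samples, without overlap. Among 5 fibroblast markers, 4 were above 0, and the collagens Col1a1, Col1a2 and Col3a1 were separated, at log2 differences of 1.21, 0.89 and 0.88. The list's sums nevertheless overlapped, at 1374, 1354 and 1403 CPM in F10-deleted samples and 1349, 1165 and 1388 CPM in F10-intact samples. All 4 adipocyte markers were above 0, with a median log2 difference of 2.76 and sums of 49.4, 26.6 and 47.2 CPM in F10-deleted samples against 26.6, 12.8 and 3.32 CPM in F10-intact samples. Of 5 neutrophil markers, 3 were tested and 0 of these were above 0. The list summed to 53.6, 64.1 and 72.5 CPM in F10-deleted samples against 61.8, 104 and 152 CPM in F10-intact samples, and overlapped. F10-intact sample 4 was the highest, as it was for Il1b. The 6 macrophage markers summed to 364, 298 and 287 CPM in F10-deleted samples and 374, 331 and 366 CPM in F10-intact samples, and overlapped. No measured marker of these lists was at 0 in every sample, and Mpo of the neutrophil list was not analysed here. The part of these cell types in the interleukin values was not tested.

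Summed over all 59 genes, interleukin transcripts made up 1233, 1336 and 1283 CPM in F10-deleted samples and 1118, 1220 and 1074 CPM in F10-intact samples. These sums did not overlap, but without Il33 they were 1019, 1081 and 1066 CPM in F10-deleted samples and 982, 1022 and 1004 CPM in F10-intact samples, and overlapped. Il33 alone supplied 17.3%, 19.1% and 17.0% of the interleukin sum in F10-deleted samples and 12.2%, 16.2% and 6.52% in F10-intact samples. The receptor chains together were nearly level, at 822, 876 and 826 CPM in F10-deleted samples and 820, 845 and 788 CPM in F10-intact samples.

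**Figure D2:**
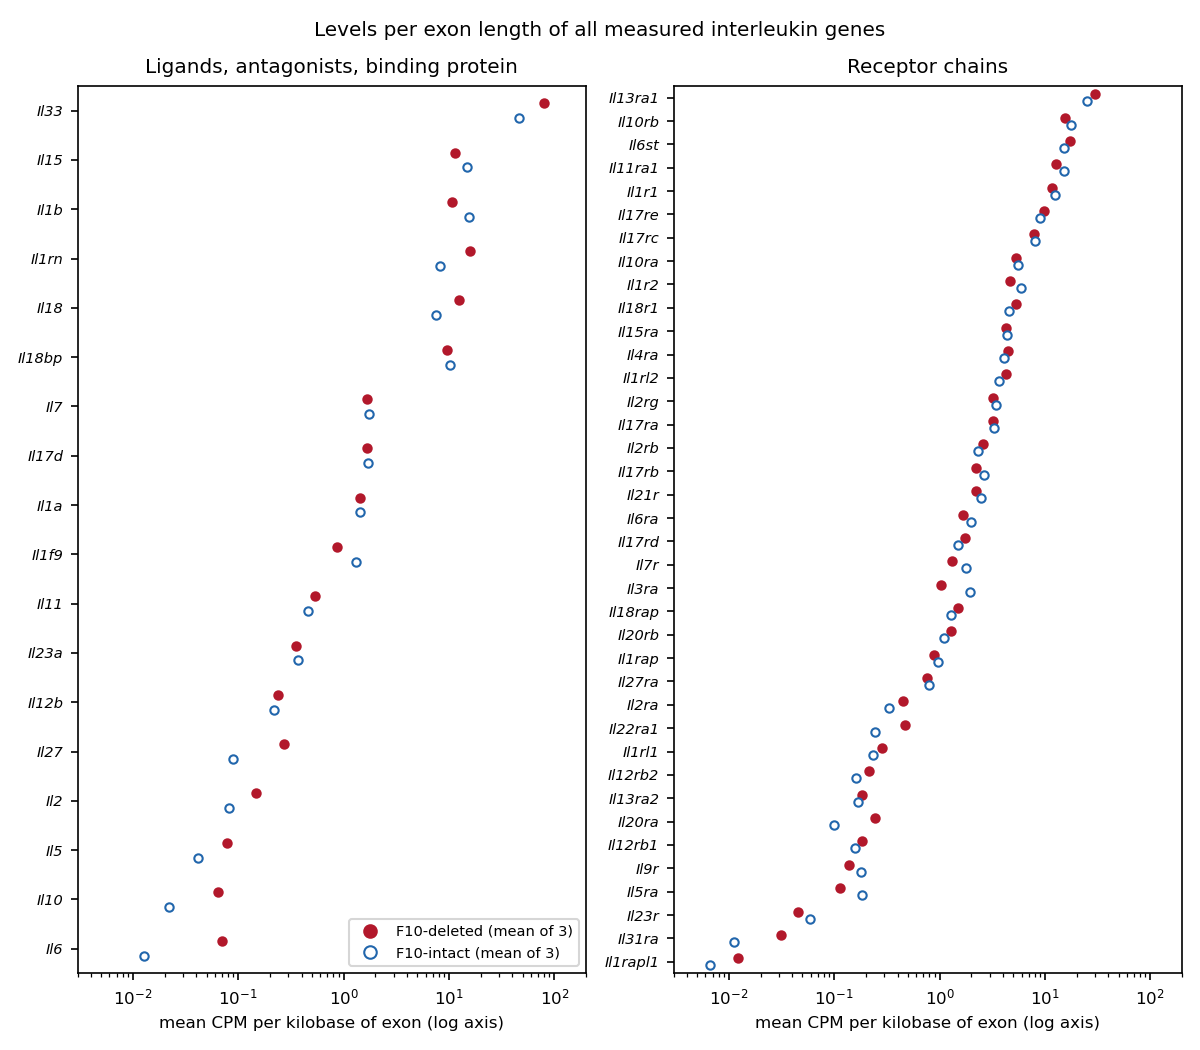
Mean level of each of the 18 ligand, antagonist and binding protein genes (left) and 38 receptor chains (right), as CPM per kilobase of exon on a log axis, for F10-deleted (filled) and F10-intact (open) samples. Il33 leads the ligands and Il13ra1 the receptors in both groups, and the lowest genes rest on a few reads.

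Per exon length, the levels of ligands spanned a wide range. Il33 averaged 79.3 CPM per kilobase in the F10-deleted group and 46.6 in the F10-intact group. Il15, Il1b, Il1rn, Il18 and Il18bp came next, between 7.49 and 16.0 CPM per kilobase in either group. Il7, the stromal survival factor of lymphocytes, was at 1.66 in the F10-deleted group and 1.73 in the F10-intact group. Il6, Il10 and Il2 were near or under the detection limit.

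Il6 had 0, 4 and 2 counts in F10-deleted samples and 1, 0 and 0 counts in F10-intact samples. Il10 had 0, 1 and 2 counts in F10-deleted samples and 0, 1 and 0 counts in F10-intact samples. Il2 had 4, 0 and 1 counts in F10-deleted samples and 1 in each F10-intact sample. A difference in these genes was not detectable at this depth, where 3 counts correspond to 0.254 to 0.315 CPM. Il23a, the IL-23 subunit, passed the filter at 13, 2 and 10 counts in F10-deleted samples and 10, 4 and 12 counts in F10-intact samples, with wide overlap. Il12b, its partner, had 3, 3 and 10 counts in F10-deleted samples and 4, 7 and 3 counts in F10-intact samples.

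Among gamma-chain ligands, Il15, which sustains natural killer and memory T cells, had 24.5, 26.8 and 26.7 CPM in F10-deleted samples and 25.1, 27.2 and 49.2 CPM in F10-intact samples. A single sample, F10-intact sample 4, stood out. The log2 fold change was -0.38 ± 0.26 (SE, adjusted p with edgeR = 0.66), and -0.01 without that sample. Its presenting receptor Il15ra had 18.5, 16.3 and 22.5 CPM in F10-deleted samples and 12.3, 19.4 and 27.0 CPM in F10-intact samples, with sample 4 again the highest of its group. Il7 had 9.41 ± 1.05 CPM in the F10-deleted group and 9.79 ± 1.57 CPM in the F10-intact group (SD, n = 3 each).

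The lymphoid receptor chains overlapped between groups. Il2rg, the gamma chain shared by receptors for IL-2, IL-4, IL-7, IL-15 and IL-21, averaged 7.75 ± 1.31 CPM in the F10-deleted group and 8.20 ± 0.661 CPM in the F10-intact group. Il2rb, the signalling chain for IL-2 and IL-15, averaged 11.1 ± 1.12 CPM in the F10-deleted group and 9.99 ± 1.62 CPM in the F10-intact group (SD, n = 3 each for both genes). Il7r, a marker of naive and memory T cells, had 7.56, 4.23 and 6.40 CPM in F10-deleted samples against 5.81, 9.77 and 9.43 CPM in F10-intact samples. These overlapped, and the log2 fold change was -0.46 ± 0.32 (SE, adjusted p with edgeR = 0.665), or -0.23 without F10-deleted sample 3. The 4 pan-leukocyte markers, for comparison, summed to 360, 351 and 368 CPM in F10-deleted samples and 358, 419 and 434 CPM in F10-intact samples.

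Il4ra, the chain that binds IL-4 and through Il13ra1 also responds to IL-13, had 28.0, 29.7 and 22.3 CPM in F10-deleted samples and 26.7, 25.6 and 20.7 CPM in F10-intact samples. Il13ra1 had the highest level per exon length of any receptor chain, 29.8 CPM per kilobase in the F10-deleted group and 24.9 in the F10-intact group. It stood at 96.1, 117 and 119 CPM in F10-deleted samples and 78.3, 113 and 86.0 CPM in F10-intact samples. The groups overlapped through F10-intact sample 3 (log2 fold change 0.26 ± 0.17 SE, edgeR adjusted p = 0.649, and 0.43 without that sample). The decoy Il13ra2 had 3, 5 and 6 counts in F10-deleted samples and 4, 8 and 1 counts in F10-intact samples. Il3ra, the specific chain of the IL-3 receptor, had 4.94, 3.47 and 0.853 CPM in F10-deleted samples and 8.58, 3.51 and 5.18 CPM in F10-intact samples. Its log2 fold change of -0.91 ± 0.61 (SE, adjusted p with edgeR = 0.65) was -0.46 without F10-deleted sample 4, -0.47 without F10-intact sample 1, and it was -1.38 when F10-deleted sample 1 was left out.

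Of the 7 tested receptor chains of the IL-1 family, none separated the groups. Il1r1, the signalling receptor of IL-1, had 65.6, 84.2 and 72.3 CPM in F10-deleted samples and 60.4, 82.4 and 94.9 CPM in F10-intact samples. The groups overlapped, and on the log2 scale the difference was -0.10 ± 0.19 (SE, adjusted p with edgeR = 0.906). Its accessory chain Il1rap, shared with the IL-33 and IL-36 receptors, averaged 10.04 ± 1.91 CPM in the F10-deleted group and 11.1 ± 3.21 CPM in the F10-intact group (SD, n = 3 each). The decoy Il1r2, abundant on neutrophils, had 7.46, 7.44 and 11.8 CPM in F10-deleted samples and 8.77, 10.5 and 14.4 CPM in F10-intact samples. These overlapped as well, at -0.33 ± 0.29 (log2 fold change ± SE, edgeR adjusted p = 0.745). Leaving out single samples moved Il1r2 between -0.59, without F10-deleted sample 4, and -0.11, without F10-intact sample 4.

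Il18r1, the ligand-binding chain for IL-18, had 22.2, 23.1 and 31.3 CPM in F10-deleted samples and 25.3, 21.5 and 18.7 CPM in F10-intact samples. The IL-36 receptor Il1rl2 had 23.2, 33.7 and 31.0 CPM in F10-deleted samples and 22.0, 25.9 and 27.2 CPM in F10-intact samples. Both overlapped, with log2 fold changes of 0.23 ± 0.20 for Il18r1 and 0.23 ± 0.18 for Il1rl2 (SE, adjusted p with edgeR = 0.744 and 0.719). Leaving out single samples moved Il18r1 between 0.051, without F10-deleted sample 4, and 0.38, without F10-intact sample 1. For Il1rl2 the limits were 0.15 (F10-deleted sample 3 left out) and 0.40 (F10-deleted sample 1 left out). Il1rl1, the receptor of IL-33, was scarce beside its ligand, at 20, 18 and 27 counts in F10-deleted samples and 24, 19 and 10 counts in F10-intact samples.

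The gp130 system was represented mainly by its receptors. Il6st, which encodes gp130, the signalling chain for IL-6, IL-11 and related cytokines, had 192, 209 and 173 CPM in F10-deleted samples and 202, 196 and 106 CPM in F10-intact samples. All but F10-intact sample 4 lay close together, and the log2 fold change was 0.19 ± 0.24 (SE, adjusted p with edgeR = 0.843), or -0.06 without that sample. Il6ra, the IL-6 binding chain, had 11.7, 16.7 and 14.5 CPM in F10-deleted samples and 16.9, 19.5 and 15.03 CPM in F10-intact samples. Il11ra1, the IL-11 binding chain, had 78.6, 40.9 and 50.7 CPM in F10-deleted samples and 89.6, 54.3 and 61.0 CPM in F10-intact samples. For Il11ra1, sample 1 was the highest in each of the groups. Il11ra1 has near-identical copies in the mouse genome, so its reads cannot be assigned with certainty. Il11 itself was at 10, 13 and 14 counts in F10-deleted samples and 8, 8 and 14 counts in F10-intact samples.

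In the IL-10 family, Il10rb, a chain shared by receptors for IL-10, IL-22 and interferon lambda, had 52.0, 58.4 and 68.3 CPM in F10-deleted samples and 44.1, 61.8 and 93.9 CPM in F10-intact samples. Il10ra, the leukocyte chain that binds IL-10, had 16.7, 17.4 and 22.3 CPM in F10-deleted samples and 21.0, 17.4 and 19.8 CPM in F10-intact samples. Neither separated the groups. The epithelial chains were rare. Il22ra1 had 7, 28 and 6 counts in F10-deleted samples and 6, 7 and 7 counts in F10-intact samples, so a single sample was high. That sample, F10-deleted sample 3, also had the highest urothelial marker sum, 1523 CPM against 325 and 355 CPM in the other F10-deleted samples and 150 to 424 CPM in F10-intact samples. Il20ra, under the filter, had 8, 5 and 6 counts in F10-deleted samples and 3, 4 and 1 counts in F10-intact samples.

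All 5 IL-17 receptor chains were measured. Il17ra, the chain common to the family, had 27.1, 27.9 and 28.6 CPM in F10-deleted samples and 28.1, 27.1 and 31.1 CPM in F10-intact samples. The log2 fold change was -0.04 ± 0.14 (SE, 95% interval -0.36 to 0.27, edgeR adjusted p = 0.941). Il17re, the epithelial receptor of IL-17C, had 55.2, 71.2 and 45.5 CPM in F10-deleted samples and 54.5, 47.2 and 56.6 CPM in F10-intact samples. Il17rc, the partner of Il17ra for IL-17A, averaged 20.8 ± 5.98 CPM in the F10-deleted group and 21.3 ± 1.99 CPM in the F10-intact group (SD, n = 3 each). Il17rd had 21.2, 18.3 and 17.8 CPM in F10-deleted samples and 18.5, 21.7 and 9.43 CPM in F10-intact samples. These genes overlapped between groups. Of the ligands, Il17d had 17, 39 and 15 counts in F10-deleted samples and 25, 26 and 19 counts in F10-intact samples.

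Outside these families, Il34, a second ligand of the macrophage receptor Csf1r, had 38, 43 and 36 counts in F10-deleted samples and 42, 15 and 8 counts in F10-intact samples. F10-intact sample 1 was level with the F10-deleted samples and the other F10-intact samples were lower. The log2 fold change was 0.83 ± 0.55 (SE, adjusted p with edgeR = 0.649), and 1.76 without F10-intact sample 1 or 0.47 without F10-intact sample 4. Il16, a T cell chemoattractant, averaged 10.5 ± 1.04 CPM in the F10-deleted group and 11.4 ± 1.93 CPM in the F10-intact group (SD, n = 3 each). Il16 shares 1202 exon bases with Stard5 on the opposite strand. On the same strand, Il2rg shares 728 exon bases with Gm20489 and Il10rb shares 569 with Gm21970.

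**Figure D3:**
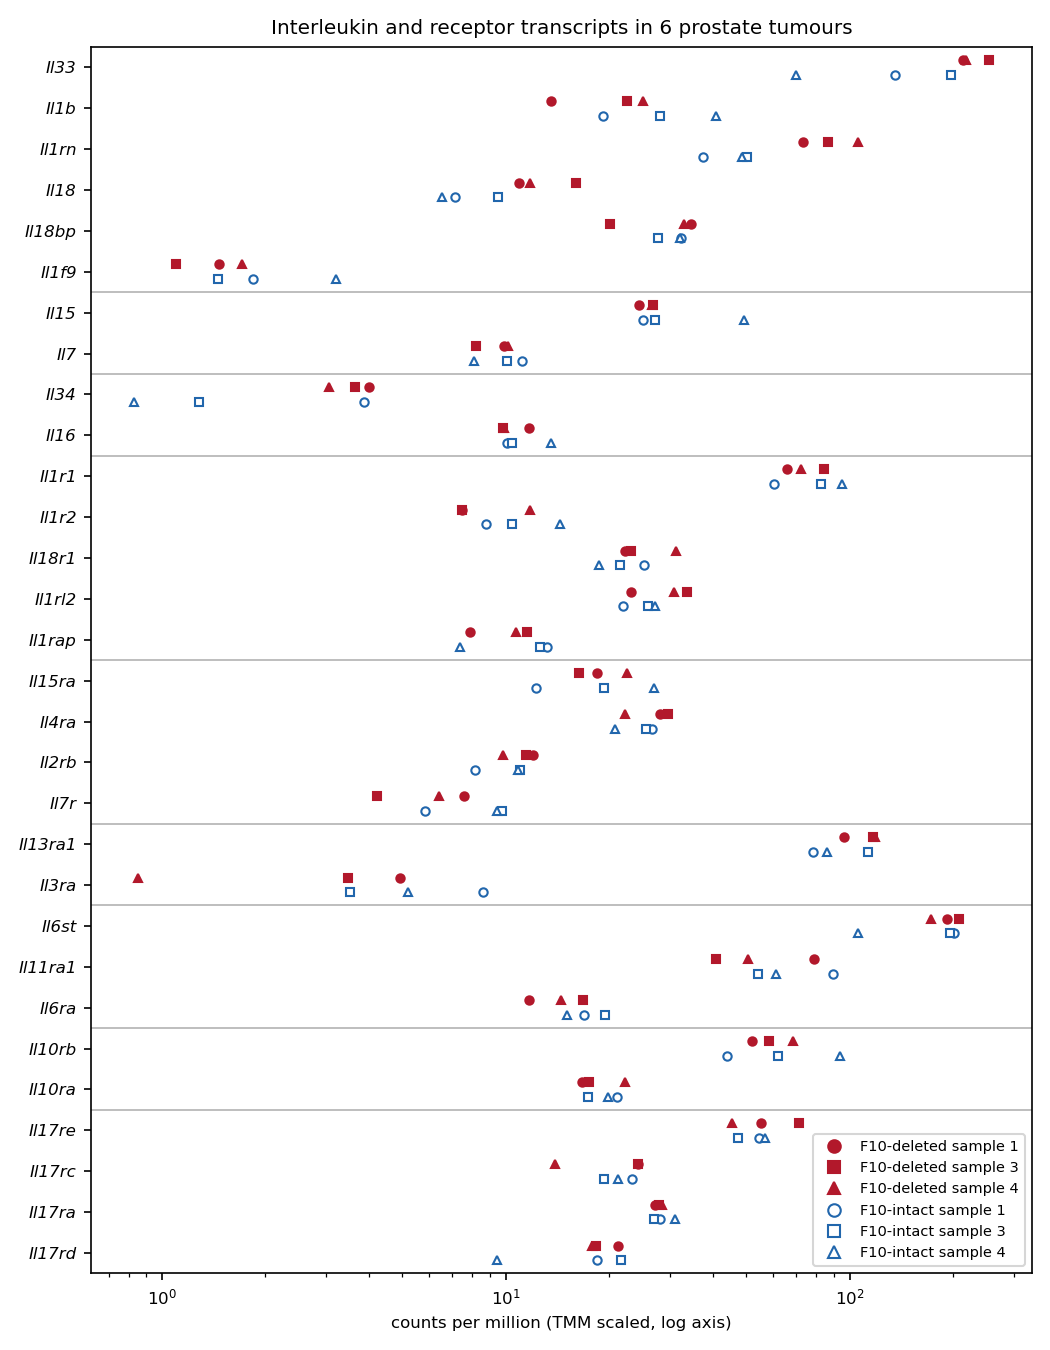
Level of the 30 named interleukin genes in each of the 6 samples, in CPM on a log axis, grouped by family with ligands at the top. Filled red marks are F10-deleted samples and open blue marks F10-intact samples. Il1rn, Il18 and Il33 separate by colour, and F10-intact sample 4 (open triangle) lies at the edge for Il15, Il33 and Il6st.

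**Figure D4:**
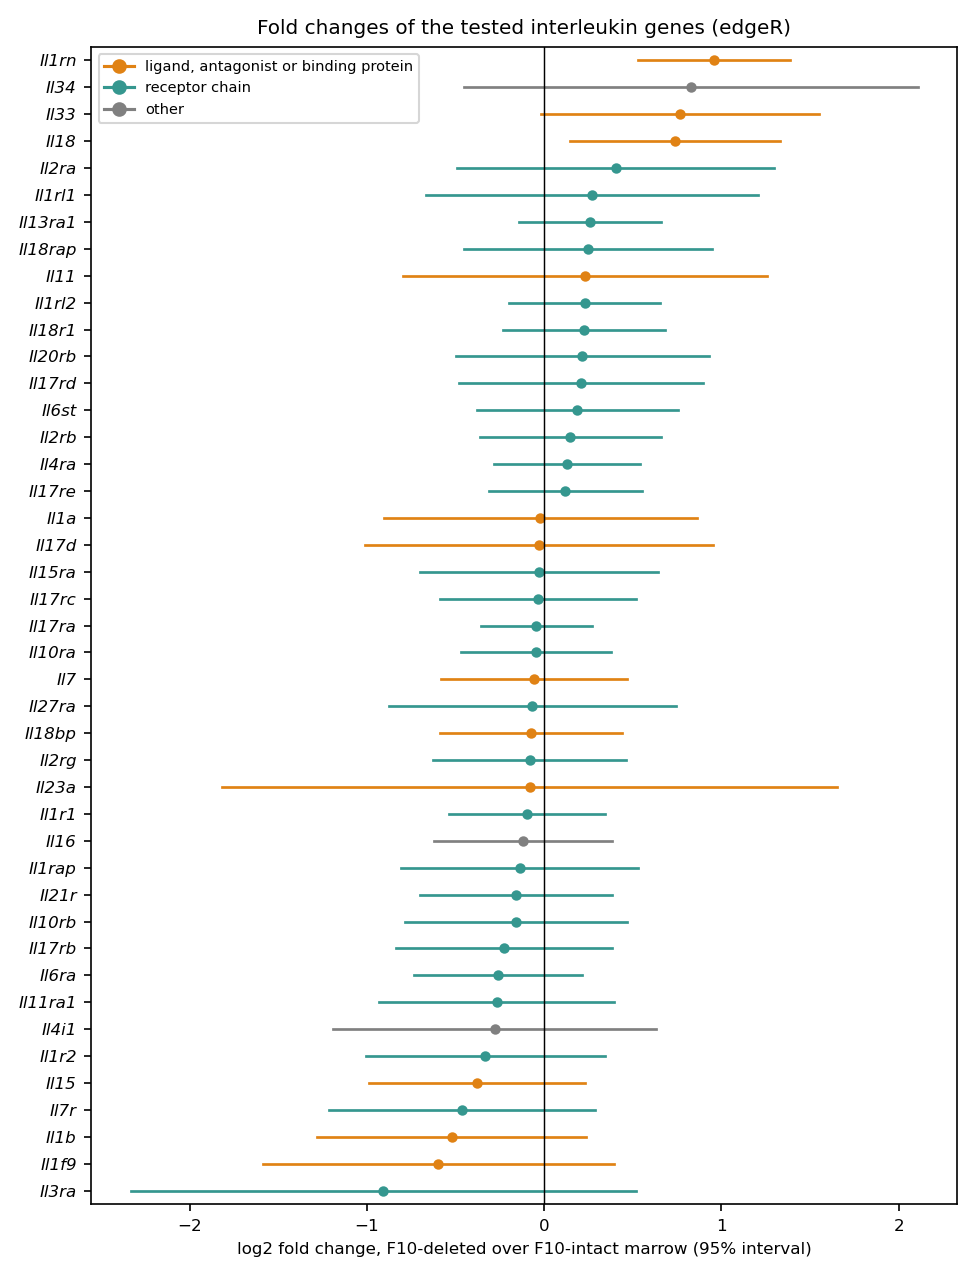
Log2 fold change (F10-deleted over F10-intact, edgeR) with its 95% interval for the 43 tested interleukin genes, ordered by size and coloured by role. The intervals of Il1rn and Il18 lie above 0, and those of the other 41 genes include 0.

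The remaining tested members overlapped between the groups as well. Il18rap, the second IL-18 receptor chain, had 8.19, 10.7 and 11.7 CPM in F10-deleted samples and 6.64, 7.03 and 12.1 CPM in F10-intact samples. Il21r, Il17rb, Il20rb, Il27ra, Il2ra and the amino acid oxidase gene Il4i1 lay between 1.96 and 9.30 CPM in F10-deleted samples and between 1.57 and 12.6 CPM in F10-intact samples. Il4i1 shares 3423 of its 4080 exon bases with Tbc1d17 on the opposite strand and 97 with Nup62 on the same strand. The strand setting of the counting is not known, so its counts and direction are uncertain. Of Il2ra, the regulatory T cell marker that completes the high-affinity IL-2 receptor, there were 33, 26 and 23 counts in F10-deleted samples and 17, 29 and 16 counts in F10-intact samples.

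The 16 members under the filter had 0 to 28 counts in any sample, 8 of them had 0 in at least 1 sample, and 3 never exceeded 3 counts. They include the IL-12 and IL-23 receptor chains. Il12rb1, common to both receptors, had 10, 6 and 8 counts in F10-deleted samples and 5, 11 and 5 counts in F10-intact samples. Il23r had 0, 3 and 1 counts in F10-deleted samples and 1, 4 and 0 counts in F10-intact samples. The eosinophil receptor chain Il5ra had 1, 6 and 7 counts in F10-deleted samples and 6, 8 and 7 counts in F10-intact samples. Il5, its ligand, never had more than 2 counts. Il12rb2, Il27, Il31ra, Il9r and Il1rapl1 lay at 0 to 15 counts.

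Between same-numbered samples, 7 of the 43 tested members (16.3%) were higher in the F10-deleted sample of all 3 pairs, as were 3194 of all 15963 genes (20%). They were Il1rn, Il18, Il33, Il34, Il13ra1, Il1rl2 and Il4ra. Another 8 members (18.6%) were lower in all 3 pairs, beside 21.2% of all genes. These were Il1b, Il1f9, Il15, Il1r2, Il3ra, Il6ra, Il11ra1 and Il4i1.

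By role, 4 of the 12 tested ligands, antagonists and binding protein had a log2 fold change above 0, with a median of -0.04, and 12 of the 28 tested receptor chains, also with a median of -0.04. The 7 IL-1 family ligands, antagonist and binding protein ranged from -0.60 to 0.96. The upper end was the antagonist Il1rn, and the highest agonist was Il33 at 0.77. The receptor chains ranged from -0.91 to 0.40, and the lowest edgeR adjusted p among them was 0.649, with no unadjusted p under 0.05.

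Genes that act downstream of these receptors or process the ligands, and partner chains and cytokines whose symbols begin otherwise, were examined in 5 lists. None of their 64 tested genes passed the edgeR test. DESeq2 called 3, or 4.69%, all of them higher in F10-deleted tumours, beside 3.05% of all genes in either direction and 2.22% higher. The groups did not overlap for 12 of the 64 genes (18.8%), beside 16.7% of all genes. The 3 genes called by DESeq2 were Clcf1, Osmr and Socs6, all among the 12. Clcf1 and Osmr belong to the list of partner chains and cytokines, not to the downstream genes. Of the rest of the 12, Gsdmd, Casp1, Stat6, Nfkb1 and Lif were higher in F10-deleted samples, and Traf3ip2, Irak1, Socs2 and Cish were lower. Clcf1 is a gp130 cytokine, Osmr the oncostatin M receptor that pairs with gp130, and Socs6 belongs to the suppressor of cytokine signalling family. Clcf1 had 18.5, 18.3 and 17.99 CPM in F10-deleted samples against 11.1, 11.1 and 9.54 CPM in F10-intact samples. Osmr had 59.6, 81.1 and 68.9 CPM in F10-deleted samples against 42.2, 48.5 and 44.5 CPM in F10-intact samples. Socs6 had 69.9, 74.3 and 79.2 CPM in F10-deleted samples against 41.6, 45.2 and 54.7 CPM in F10-intact samples. None of these overlapped between groups. The edgeR log2 fold changes were 0.78 ± 0.17 for Clcf1, 0.63 ± 0.15 for Osmr and 0.66 ± 0.15 for Socs6 (SE, adjusted p with edgeR = 0.152, 0.194 and 0.16). With DESeq2 the adjusted p was 0.00966 for Clcf1, 0.0229 for Osmr and 0.00838 for Socs6.

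The inflammasome list, whose products cut and release IL-1 beta and IL-18, had 5 of 8 tested genes above 0 and a median log2 fold change of 0.16. Casp1, the protease itself, had 24.9, 18.5 and 25.2 CPM in F10-deleted samples against 9.23, 12.8 and 17.7 CPM in F10-intact samples. Gsdmd, which forms the exit pore, had 31.6, 34.1 and 33.0 CPM in F10-deleted samples against 25.2, 22.6 and 20.1 CPM in F10-intact samples. Both were separated between groups, at log2 fold changes of 0.79 ± 0.26 for Casp1 and 0.54 ± 0.15 for Gsdmd (SE, adjusted p with edgeR = 0.33 and 0.241). Among the sensor genes, Nlrp3 differed by -0.31 on the log2 scale (adjusted p with edgeR = 0.779). The other sensors of the list were at 0.21 for Nlrp1b, 0.39 for Nlrc4 and -0.000404 for Aim2 (adjusted p with edgeR = 0.843, 0.878 and 0.9999). The rest of the list, Pycard and Casp4, stood at -0.23 and 0.12 (adjusted p with edgeR = 0.626 and 0.885).

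The MyD88 and NF-kB list, which carries the signal of IL-1 family and IL-17 receptors, had 9 of 20 genes above 0 and a median of -0.05. Irak1, a kinase of the IL-1 receptor complex, had 136, 138 and 149 CPM in F10-deleted samples against 169, 161 and 238 CPM in F10-intact samples. Traf3ip2, the adaptor of IL-17 receptors, had 58.8, 48.0 and 49.1 CPM in F10-deleted samples against 67.9, 60.5 and 100 CPM in F10-intact samples. In both genes the F10-deleted samples were the lower ones, with edgeR adjusted p of 0.432 and 0.387, and F10-intact sample 4 was the highest. The JAK and STAT list had 8 of 11 genes above 0 and a median of 0.06, and in it the kinase gene Jak2 was at 0.29 ± 0.15 (log2 fold change ± SE, edgeR adjusted p = 0.546). In the SOCS list, 5 of 8 genes were above 0, and the median was 0.08. In it Socs2, a feedback inhibitor induced by STAT5, had 20.8, 16.8 and 25.8 CPM in F10-deleted samples against 29.4, 34.9 and 33.7 CPM in F10-intact samples (edgeR adjusted p = 0.286). Of 17 tested partner chains and cytokines whose symbols begin otherwise, 7 were above 0, and their median was -0.02.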

How the data were processed

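Per the labels' protocols, libraries of messenger RNA kept strand and were sequenced from a single end over 120 bases. The deposited values are raw counts, whole numbers for each Ensembl gene. STAR 2.7.10a, DESeq2 and build GRCm38 are named in the submitters' processing notes, and a counting program or strand setting is not given in the sources used here. GENCODE M21 gave symbols to 21605 identifiers and none to 113.

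Here edgeR 4.0.16 (R 4.3.3, quasi-likelihood, robust, TMM factors, filterByExpr at a minimum count of 10) compared F10-deleted with F10-intact samples, with Benjamini-Hochberg adjustment over 15963 genes and a threshold of 0.05. It was also run on simulated counts with known changes, which had no outlying sample such as F10-intact sample 4. CPM use the TMM factors, and levels between genes are per kilobase of merged exons. DESeq2 1.42.0, limma-voom 3.58.1, other scalings and filters, the block and leaving out each sample were alternatives.

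The members and lists were chosen with earlier results of these data known. Genes were named by a mean of at least 5 CPM, by the 12 smallest p, or by no overlap with an absolute log2 fold change of at least 1, up to 30, plus Il1b, Il6, Il10, Il23a and their receptors, and 2 genes per pathway list. Other members appear as levels only, chosen after their values were seen. The inflammasome sensor genes, Pycard and Casp4 were added outside this rule. The host genotype and 1 gene named by this rule are not reported here.

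Same-numbered samples deviated together (correlations 0.372, 0.140 and 0.186 for numbers 1, 3 and 4), all over 0.1. The labels do not say that the numbers mark pairs, and with 3 samples per group such correlations are weak evidence of pairing. The main fit had no block, so its p-values and intervals ignore any pairing, and the fit with the block was run beside it. All samples differed beyond counting noise (chi-square per degree of freedom 22.3 to 77.5). The floor of 3 counts covers counting error only, while the fitted intervals also hold the spread between samples.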

Additional observations from a re-analysis of the deposited data

How the results depend on the processing

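edgeR called 7 genes among all genes. The number called was 487 with DESeq2 and 85 at an adjusted p under 0.1, both with all 7 among them. It was 2 with limma-voom and 2 with a filter of 1 CPM in 3 samples, all among the 7, and 2 with the replicate block, of which 0 were among the 7. Leaving out each sample in turn gave 0 to 72, the lowest without F10-deleted sample 4 or F10-intact sample 3, the highest without sample 1 of the F10-intact group. Interleukin genes called were 1 with DESeq2 (Il1rn), and pathway genes called were 3 with DESeq2 (Clcf1, Osmr and Socs6), while both counts were 0 with the other tools, scalings and filters, with the block and without any sample. The block changed no call of an interleukin or pathway gene. The median log2 fold change of the interleukin genes was 0.10 with no filter and -0.082 to 0.040 without each sample, and 5 of them did not overlap between groups with no filter (8.47%, beside 15.3% of all genes). Without each sample 5 to 8 did not overlap (11.1% to 17.8%), beside 21.3% to 31% of all genes. Il1rn, Il18 and Il33 kept their direction in every setting that was run, from 0.81 to 1.11, 0.58 to 0.92 and 0.45 to 1.15 without each sample. They were singled out because their groups did not overlap, so leaving out a sample could hardly turn them, and this adds no support.

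Some differences near 0 turned. Il15ra was 0.00241 with upper quartile scaling, 0.041 with limma-voom and 0.019 with the block, and Il1a was 0.00359 with upper quartile scaling. Without each sample, the ranges that crossed 0 were -0.19 to 0.066 for Il10ra, -0.35 to 0.17 for Il10rb, -0.54 to 0.00566 for Il11ra1, -0.24 to 0.27 for Il15ra, -0.18 to 0.023 for Il16, -0.088 to 0.013 for Il17ra, -0.13 to 0.19 for Il17rc, -0.076 to 0.45 for Il17rd and -0.038 to 0.26 for Il17re. They were also -0.18 to 0.17 for Il18bp, -0.23 to 0.050 for Il1r1, -0.36 to 0.039 for Il1rap, -0.060 to 0.37 for Il6st, -0.18 to 0.075 for Il7, -0.37 to 0.18 for Il1a and -0.65 to 0.44 for Il23a. The cause was not tested. At this depth, genes near 3 counts, such as Il6 and Il10, give no usable difference.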
